A study of Mus musculus with 9 samples.

Results

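Calcium-binding S100 proteins and calcium-dependent annexins were followed as mRNA in mouse cerebral cortex, for S100a1, S100a4, S100a6, S100a10, S100a11, Anxa1, Anxa2, Anxa3, Anxa4 and Anxa5. These 10 genes were taken by name from a table of 37893 genes. All 10 passed the filter for testing (at least 0.5 FPKM, fragments per kilobase, scaled to library depth, in at least 3 of the 9 libraries), as did 17247 genes of the whole table.

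The libraries fall into 3 groups of 3. The sham_WT libraries came from the cerebral cortex of wild-type mice after sham surgery, and the IR_WT libraries from the peri-infarct cortex of wild-type mice after transient middle cerebral artery occlusion (tMCAO), with 60 min of ischemia and 1 day of reperfusion. The IR_Matn3_ko libraries came from the same region after the same ischemia and reperfusion, in mice with a knockout of Matn3, which encodes the cartilage matrix protein matrilin-3. No sham-operated knockout is among the groups, so a genotype difference without ischemia was not measured. The labels differ in region between sham and ischemic cortex, so dissected region and surgery cannot be told apart. The design text gives 3 mice per group and names scar formation by glia as the process of interest. The strain, the age and the way the knockout (Matn3 -/-) was made were not stated.

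S100 proteins are small EF-hand proteins, most of which pair as dimers and expose a binding face when calcium is bound. Annexins bind acidic phospholipid on membranes when calcium rises. The families meet in defined complexes: an S100a10 dimer joins a pair of Anxa2 molecules into a tetramer at the plasma membrane, and S100a11 binds Anxa1 and Anxa2. Several annexins gather at torn plasma membrane during its repair, and in brain S100 and annexin genes are expressed by astrocytes, microglia, vessel cells and neurons in different proportions.

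Total counts were 53400376 to 68370527 per library, and 3 counts, the limit that a count of 0 allows, corresponded to 0.0439 to 0.0562 CPM (counts scaled to library size). Matn3 had 0, 4 and 26 counts in the sham_WT libraries. It had 33, 12 and 48 counts in the IR_WT libraries and 0, 17 and 0 in those of IR_Matn3_ko. The 17 counts, in the library labelled IR_Matn3_ko 2, overlap both wild-type groups, so this gene does not check the genotype labels. Transcripts of other tissues also set libraries apart. The summed level of 15 small intestine markers was 5.58 to 6.47 CPM in sham_WT, where 8 of the 15 were at 0 in all libraries, and 8.51 CPM in IR_WT 1. It was 428 and 274 CPM in IR_WT 2 and 3, and 87.4 to 339 CPM in IR_Matn3_ko. The 12 B-cell markers separated the same libraries the other way, at 219 to 314 CPM in sham_WT and 215 CPM in IR_WT 1 against 11.6 to 25.5 CPM in the other 5. The 12 cartilage markers stood at 357 to 394 CPM in sham_WT 2, sham_WT 3 and IR_WT 1 and at 45.1 to 105 CPM elsewhere. The 4 libraries low and the 5 libraries high in intestinal transcripts are treated below as sets of libraries: IR_WT is divided between them, while sham_WT lies wholly in the low set and IR_Matn3_ko wholly in the high one. What these sets share is not given in the labels.

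Levels per length in sham cortex spanned a wide range. S100a1, an EF-hand protein that regulates calcium handling in muscle and neurons, was the most abundant of the 10 at 30.2 ± 3.35 FPKM (SD, n = 3). Anxa5, the phosphatidylserine-binding annexin used to detect dying cells, had 19.3 ± 1.10 FPKM. S100a10 and S100a11 were both at 12.4 FPKM, with SDs of 1.46 and 3.38. Below them, Anxa2 had 5.20 ± 1.37, S100a6 3.95 ± 0.574 and Anxa3 2.79 ± 0.144 FPKM. Anxa1, Anxa4 and S100a4 were lowest, at 1.41 ± 0.241, 1.13 ± 0.0260 and 0.920 ± 0.220 FPKM. The sum of the 5 S100 levels was 59.8 ± 5.23 FPKM in sham_WT, 63.8 ± 2.34 in IR_WT and 86.5 ± 4.41 in IR_Matn3_ko. The sum of the 5 annexin levels was 29.8 ± 2.23, 35.3 ± 3.29 and 47.9 ± 3.40 FPKM. Within the S100 sum the share of S100a1 was 50.4% in sham_WT, 43.7% in IR_WT and 30.9% in IR_Matn3_ko, while that of S100a11 was 20.7%, 25.1% and 37.2%.

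**Figure D1:**
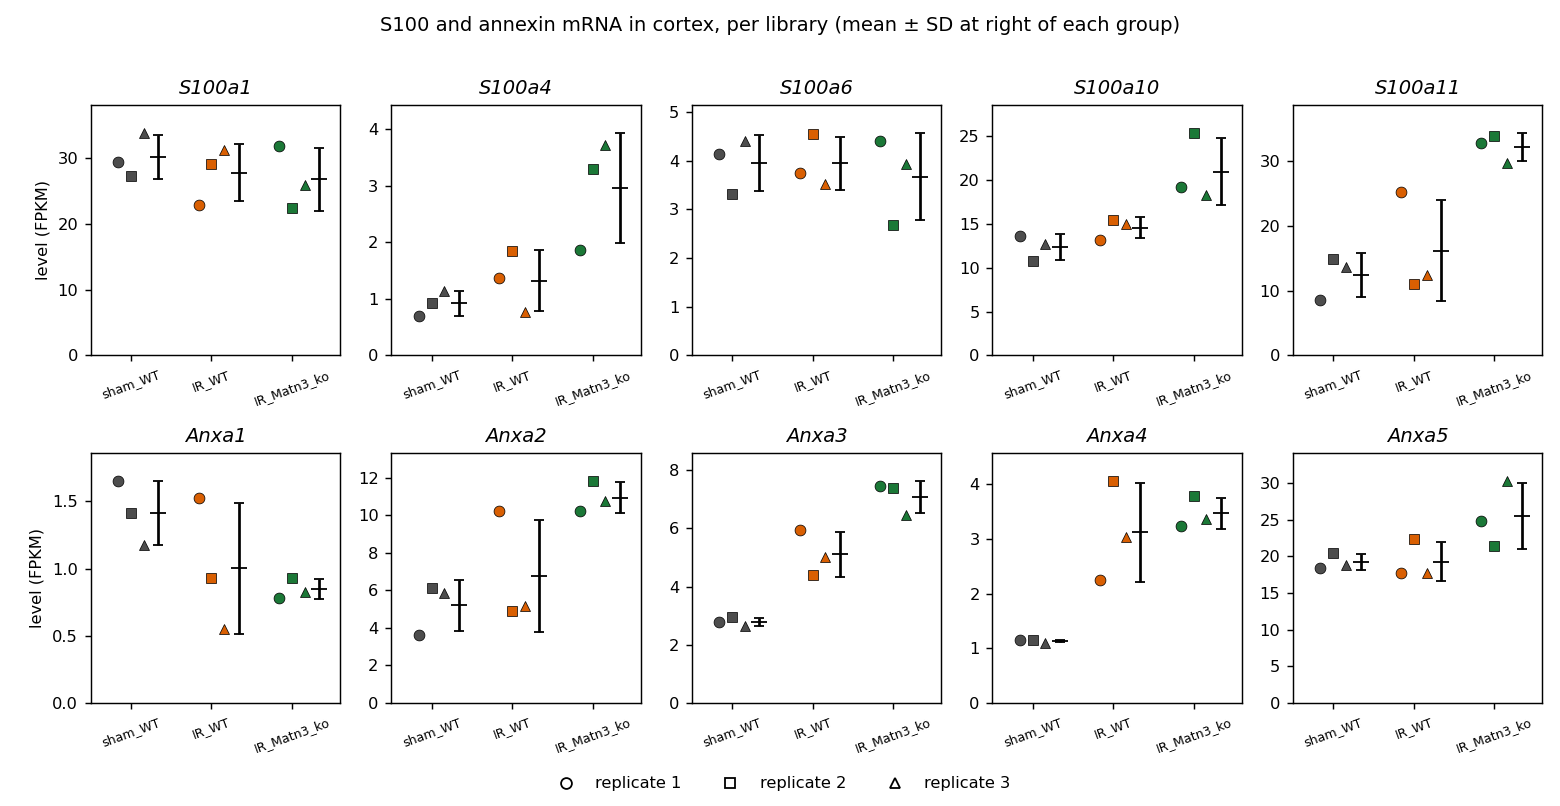
Level of each gene in FPKM (vertical axes, starting at 0) in the 9 libraries. Points are libraries, marked by replicate number, and the bars at the right of each group are the mean ± SD of 3. Anxa3 and Anxa4 lie above the sham_WT values in all ischemic libraries, and IR_WT 1 lies far from the other IR_WT libraries for S100a11 and Anxa2.

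The first question of the design was which genes differ after ischemia and reperfusion in wild-type cortex. Anxa3 and Anxa4 rose, and none of the 10 genes fell. These 2 of 10 compare with 4.06% of all tested genes called in either direction (2.54% called higher and 1.52% lower) by edgeR's quasi-likelihood test at a Benjamini-Hochberg adjusted p under 0.05. These 2 genes were also the ones whose 3 IR_WT libraries all lay above the 3 sham_WT libraries in CPM, which held for 13.1% of all tested genes, with 12.5% the other way and 25.6% in either direction. The log2 fold change was above 0 for 6 of the 10, with a median of 0.21 against 0.0017 over all tested genes. The same sham_WT libraries serve the comparison with IR_Matn3_ko, and the same IR_WT libraries serve both comparisons with ischemic wild type, so none of the 3 comparisons is independent of the others. In bulk tissue, more or fewer cells of a type and more or less RNA per cell cannot be told apart in any of them.

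Anxa4, an annexin of epithelial and secretory membranes, had 1.15, 1.14 and 1.10 FPKM in the sham_WT libraries and 2.26, 4.07 and 3.03 FPKM in IR_WT. The groups did not overlap, and the lowest ischemic library was the one low in intestinal transcripts. The fold change was 2.55, a log2 change of 1.35 ± 0.18 (SE; 95% confidence interval 0.94 to 1.76; edgeR adjusted p = 0.00365). Anxa4 was past the threshold without any one library. With a term for the library sets the log2 change was 0.91. In this comparison the term sets only IR_WT 1, the IR_WT library in the low set, against the sham_WT libraries. The value therefore rests on that ischemic library alone. Anxa4 is abundant in gut epithelium, and among the IR_WT libraries its level was 11.6 CPM in IR_WT 1 and 17.8 CPM on average in IR_WT 2 and 3, a ratio of 0.649. The part of the intestinal transcripts in the remaining difference was not tested.

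Anxa3, an annexin of phagocytes and microglia, had 2.78, 2.94 and 2.65 FPKM in sham_WT and 5.94, 4.39 and 5.01 FPKM in IR_WT. All 3 ischemic libraries were above all 3 sham libraries, with IR_WT 1 highest. The fold change was 1.71, a log2 change of 0.78 ± 0.14 (SE; interval 0.48 to 1.08; edgeR adjusted p = 0.0129). The log2 change was 1.00 with a term for the library sets, a value that rests on IR_WT 1 alone among the ischemic libraries. The call was lost without sham_WT 1 (adjusted p = 0.0627) and without sham_WT 3 (0.0543), with log2 changes of 0.78 and 0.74. It was also lost without the 3 libraries high in cartilage transcripts (0.65; adjusted p = 0.212), where sham_WT has 1 library left. The summed level of 11 microglia and macrophage markers was 363 to 387 CPM in sham_WT and 532 to 628 CPM in IR_WT, and none of the 11 was at 0. Its part in the Anxa3 difference was not tested.

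S100a11 and Anxa2, whose proteins bind each other, varied more within IR_WT than between the group means. S100a11 had 8.56, 14.9 and 13.7 FPKM in sham_WT and 25.2, 10.99 and 12.4 FPKM in IR_WT. Anxa2 had 3.62, 6.11 and 5.86 FPKM in sham_WT and 10.2, 4.89 and 5.17 FPKM in IR_WT. For both genes IR_WT 1 stood above every sham library, while IR_WT 2 and 3 lay within the sham range. IR_WT 1 exceeded the mean of the other two by 2.17 times for S100a11 and 2.05 times for Anxa2 in CPM. The log2 changes were 0.29 ± 0.31 (edgeR adjusted p = 0.659) and 0.29 ± 0.28 (adjusted p = 0.632), and without IR_WT 1 they were -0.18 and -0.15. The coefficients of variation within IR_WT were 49.2% and 45.2%. Among the 6 wild-type libraries both genes were highest in sham_WT 2, sham_WT 3 and IR_WT 1, the 3 libraries with 357 to 394 CPM of cartilage markers. Col1a1, a fibroblast and bone collagen, had 37.4, 33.9 and 30.7 CPM in those libraries and 1.85 to 7.36 CPM in the other 3. The knockout libraries, where the FPKM of S100a11 and Anxa2 were at or above every wild-type value, had 45.1 to 65.8 CPM of cartilage markers and 5.55 to 7.35 CPM of Col1a1. Dcn, another fibroblast marker, did not follow Col1a1. It had 8.12, 10.9 and 21.6 CPM in sham_WT 2, sham_WT 3 and IR_WT 1. In sham_WT 1, IR_WT 2 and IR_WT 3 it had 5.62, 14.3 and 14.6 CPM, and in IR_Matn3_ko 32.4 to 45.8 CPM. The part of these transcripts in the wild-type levels was not tested.

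Anxa1, the glucocorticoid-induced annexin that signals through formyl peptide receptors, had 1.65, 1.41 and 1.17 FPKM in sham_WT and 1.52, 0.926 and 0.552 FPKM in IR_WT. IR_WT 1 lay within the sham range and the other two ischemic libraries below it. The log2 change was -0.59 ± 0.32 (interval -1.31 to 0.13; edgeR adjusted p = 0.358). It was 0.03 with a term for the library sets, which here compares IR_WT 1 alone with sham_WT. The 10 keratinocyte markers, a cell type rich in Anxa1, summed to 61.7 to 123 CPM in sham_WT, to 54.7 CPM in IR_WT 1 and to 15.9 to 18.2 CPM in IR_WT 2 and 3. Their part in the Anxa1 levels was not tested.

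The other 5 genes did not pass the test after ischemia in wild type. S100a10, the annexin-binding S100 protein without calcium-dependent switching, had a log2 change of 0.14 (interval -0.18 to 0.46). Anxa5 had -0.09 (-0.39 to 0.20), S100a6 -0.10 (-0.59 to 0.39) and S100a1 -0.21 (-0.58 to 0.16). S100a4, a motility-associated S100 protein of fibroblasts and leukocytes, had 0.42 (-0.44 to 1.28) from only 24 to 81 counts per library in these 2 groups. The interval was widest for S100a4.

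**Figure D2:**
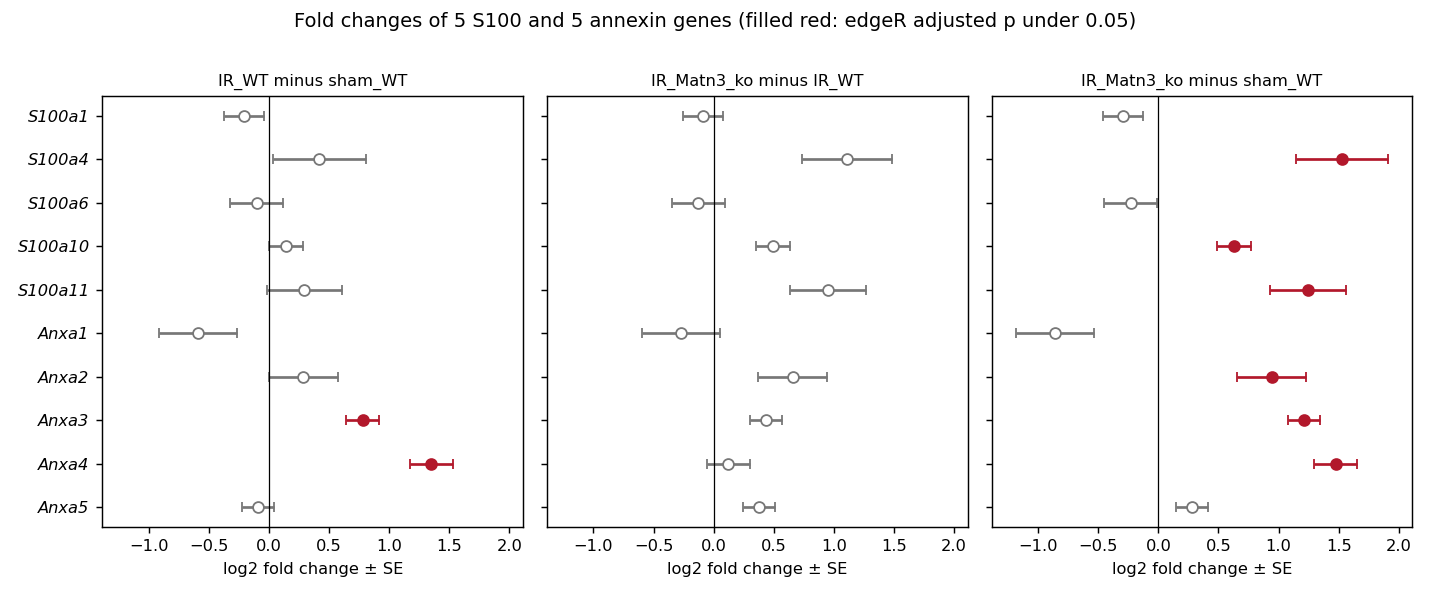
Log2 fold changes ± SE (horizontal axes) of the 10 genes in the 3 comparisons, from the edgeR model over 9 libraries; filled red points have an adjusted p under 0.05. Anxa3 and Anxa4 are filled in IR_WT against sham_WT, none is filled in IR_Matn3_ko against IR_WT, and 6 are filled in IR_Matn3_ko against sham_WT.

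The second question was whether the knockout changes the ischemic cortex. None of the 10 genes passed the edgeR test in either direction, with 0% of all tested genes called. At an unadjusted p under 0.05 there were 2302 genes, 6 of them among the 10, and DESeq2 called 668 genes, of which S100a10 (adjusted p = 0.0428) and S100a11 (adjusted p = 0.0452) were 2. All 3 knockout libraries were above all 3 ischemic wild-type libraries in CPM for 4 of the 10 genes, S100a4, S100a10, S100a11 and Anxa3, against 9.42% of all tested genes. None of the 10 was apart in the lower direction, as 8.44% of all genes were, for 17.9% in either direction. The log2 fold change was above 0 for 7 of the 10, with a median of 0.41 against -0.0013 over all genes.

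S100a11 had 32.9, 33.9 and 29.8 FPKM in IR_Matn3_ko, against 25.2, 10.99 and 12.4 FPKM in IR_WT. Every knockout library was above every IR_WT library, and the nearest was IR_WT 1. The ratio of the groups was 1.93, a log2 difference of 0.95 ± 0.31 (SE; interval 0.25 to 1.65; edgeR adjusted p = 0.238). Without IR_WT 1, which leaves in these 2 groups the 5 libraries high in intestinal transcripts, the difference was 1.43 (adjusted p = 0.0537). That fit kept the sham_WT libraries, so its adjusted p does not come from the 5 libraries alone.

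Anxa2 had 10.2, 11.8 and 10.7 FPKM in IR_Matn3_ko and, as given above, 10.2 FPKM in IR_WT 1 and 4.89 and 5.17 FPKM in IR_WT 2 and 3. In CPM the groups overlapped, since IR_WT 1 had 41.8 CPM and the knockout libraries 41.0 to 46.2 CPM. The log2 difference was 0.66 ± 0.28 (interval 0.02 to 1.29; edgeR adjusted p = 0.361), and 1.09 without IR_WT 1 (adjusted p = 0.0619). The meninges and fibroblast markers, which include cells rich in Anxa2, summed to 109 to 175 CPM in IR_WT and 150 to 165 CPM in IR_Matn3_ko. These markers did not move alike. Dcn had 14.3 to 21.6 CPM in IR_WT and 32.4 to 45.8 CPM in IR_Matn3_ko, whereas Ogn had 0.731 to 4.99 and 0.704 to 0.962 CPM. Pdgfra, in the same sum, had 40.9 to 54.1 and 41.5 to 48.7 CPM. The part of these markers in the Anxa2 levels was not tested.

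S100a10 had 19.2, 25.3 and 18.3 FPKM in IR_Matn3_ko and 13.2, 15.4 and 15.0 FPKM in IR_WT. The groups did not overlap, and the library labelled IR_Matn3_ko 2 was highest. The log2 difference was 0.49 ± 0.14 (interval 0.17 to 0.81; edgeR adjusted p = 0.192). Anxa3 had 7.44, 7.38 and 6.46 FPKM in IR_Matn3_ko, all above the 4.39 to 5.94 FPKM of IR_WT, with a log2 difference of 0.43 ± 0.13 (adjusted p = 0.214). Microglia and macrophage markers summed to 682 to 793 CPM in IR_Matn3_ko, above the 532 to 628 CPM of IR_WT, and their part in these levels was not tested.

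S100a4 had 1.87, 3.29 and 3.72 FPKM in IR_Matn3_ko and 1.36, 1.85 and 0.761 FPKM in IR_WT. The lowest knockout library was just above the highest wild-type library. The log2 difference of 1.11 ± 0.38 had an interval of 0.27 to 1.95 and an edgeR adjusted p of 0.246. Anxa5 had 24.8, 21.5 and 30.4 FPKM in IR_Matn3_ko against 17.8, 22.4 and 17.8 FPKM in IR_WT, which overlap, with a log2 difference of 0.38 ± 0.13 (adjusted p = 0.269). Anxa4 had 3.24, 3.79 and 3.37 FPKM in IR_Matn3_ko, inside the IR_WT range, with a log2 difference of 0.12 (interval -0.27 to 0.52). The differences of S100a1 (-0.09), S100a6 (-0.13) and Anxa1 (-0.27) had intervals that include 0.

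**Figure D3:**
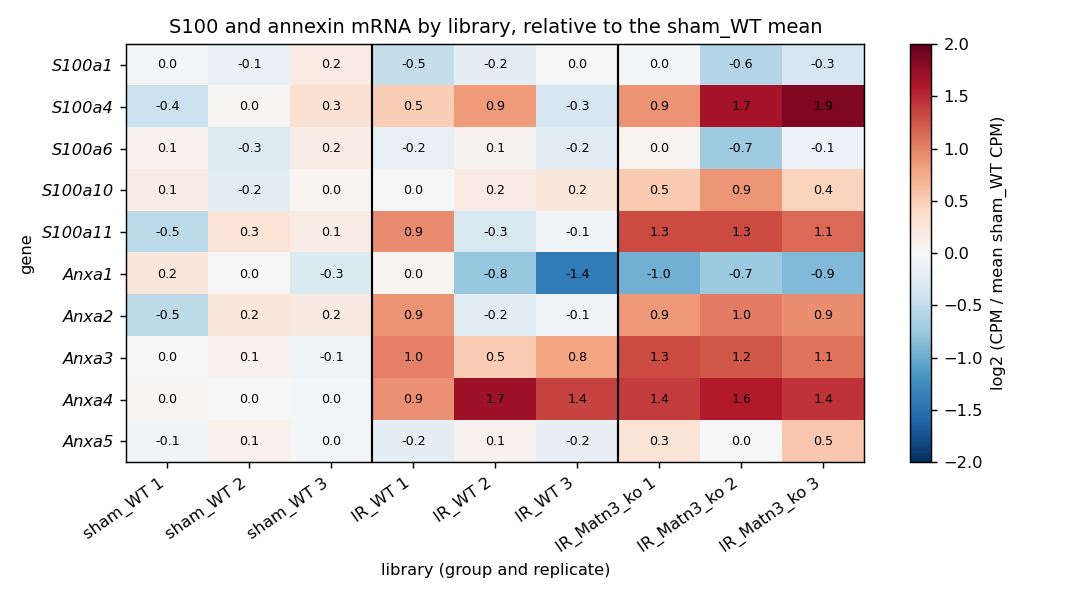
Log2 ratio of each library's CPM to the mean sham_WT CPM (colour and printed value) for the 10 genes (rows) in the 9 libraries (columns). S100a11 and Anxa2 read 0.9 or above (rounded) in IR_WT 1 and in the 3 IR_Matn3_ko libraries and below 0 in IR_WT 2 and 3, whereas Anxa4 reads 0.9 or above in all 6 ischemic libraries.

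Against sham cortex, the ischemic knockout cortex showed the most calls, in a comparison where genotype and surgery both differ. S100a4, S100a10, S100a11, Anxa2, Anxa3 and Anxa4 rose and none fell, which is 6 of 10 higher, beside 11.8% of all tested genes called higher, 10.7% lower and 22.5% in either direction. In CPM the groups did not overlap for the same 6 genes, higher in the knockout, and for Anxa1, lower, beside 21.6% of all genes apart upwards, 20.8% downwards and 42.5% in either direction. The median log2 fold change of the 10 was 0.79, against 0.00028 for all genes. All sham_WT libraries are in the set low in intestinal transcripts and all IR_Matn3_ko libraries in the high one, so within no set can this comparison be made. A term for the sets can be estimated only through the divided IR_WT group, from IR_WT 1 against IR_WT 2 and 3. Every change with the term in this comparison therefore depends on the single library IR_WT 1. With the term, 3 of the 10 were called, S100a11, Anxa2 and Anxa3, each of them higher in IR_WT 1 than in the mean of IR_WT 2 and 3. Without the 3 libraries high in cartilage transcripts, a setting added after seeing the data that leaves 1 sham_WT library, S100a4 (edgeR adjusted p = 0.124) and S100a10 (0.207) were not called.

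S100a11 rose 2.37-fold, a log2 change of 1.25 ± 0.32 (SE; interval 0.54 to 1.95; edgeR adjusted p = 0.0206), and Anxa3 rose 2.32-fold, by 1.21 ± 0.14 (0.91 to 1.52; adjusted p = 0.000429). With the set term these log2 changes were 2.37 (adjusted p = 0.00498) and 1.57 (0.00304). The term adds the difference of IR_WT 1 from IR_WT 2 and 3. In CPM, IR_WT 1 was at 2.17 times their mean for S100a11 and 1.28 times for Anxa3. The larger values thus come from IR_WT 1, a library high in cartilage transcripts. Anxa2 rose 1.92-fold, by 0.94 ± 0.29 (0.30 to 1.58; adjusted p = 0.0406). Its adjusted p lay close to the threshold. Anxa2 was called in 3 of the 9 fits that leave out a library, those without an IR_WT library. The call was lost without any one library of the 2 groups compared, with a highest adjusted p of 0.133 without sham_WT 1. It was also lost with no filter on low values and with the replicate block. With the set term Anxa2 had a log2 change of 1.98 (adjusted p = 0.00631). That larger value too comes from IR_WT 1, which was at 2.05 times the mean of IR_WT 2 and 3 in CPM. Leaving out sham_WT 1 also ended the calls of S100a11 (0.0754) and S100a4 (0.0758).

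Anxa4 rose 2.78-fold, by 1.47 ± 0.18 on the log2 scale (interval 1.07 to 1.88; edgeR adjusted p = 0.00071), and by 0.85 with the set term (adjusted p = 0.062). S100a4 rose 2.89-fold, by 1.53 ± 0.38 (0.67 to 2.39; adjusted p = 0.0197), and S100a10 rose 1.55-fold, by 0.63 ± 0.14 (0.31 to 0.95; adjusted p = 0.0128). With the set term neither was called, at 1.63 (adjusted p = 0.199) and 0.44 (0.344). S100a4 was also lost without sham_WT 2 (0.0609) and without IR_Matn3_ko 3 (0.0658), and S100a10 without sham_WT 2 (0.0502).

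Anxa1 was below the sham range in all 3 knockout libraries, at 0.784, 0.930 and 0.826 FPKM, with a log2 change of -0.86 ± 0.33 that missed the threshold (edgeR adjusted p = 0.0852). The call depended on the setting: DESeq2 called it lower (adjusted p = 0.0409), as did edgeR with only the 2 groups compared (0.0200), without IR_WT 1 (0.0263) and without IR_WT 3 (0.0386), while the change was 0.21 with the set term (0.815). Anxa5 (0.28; interval -0.01 to 0.58), S100a1 (-0.30; -0.67 to 0.07) and S100a6 (-0.23; -0.72 to 0.26) were not called. S100a6, an S100 protein that binds Cacybp, had 4.13, 3.31 and 4.41 FPKM in sham_WT, 3.75, 4.55 and 3.52 in IR_WT and 4.41, 2.67 and 3.94 in IR_Matn3_ko. S100a1 had 29.4, 27.3 and 33.8 FPKM in sham_WT, 22.9, 29.1 and 31.3 in IR_WT. Its knockout libraries had 31.9, 22.4 and 26.0 FPKM, and the 3 groups overlap for both genes.

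**Figure D4:**
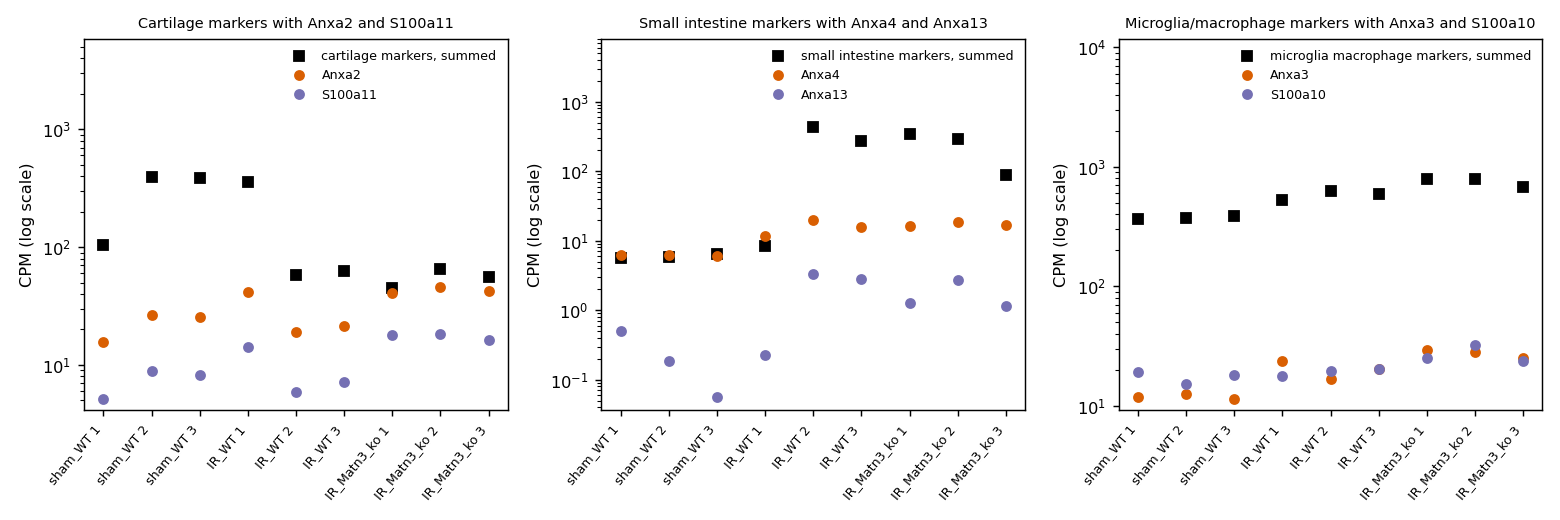
Summed level of cartilage, small intestine and microglia/macrophage markers (squares) with single genes (circles) in each library, in CPM on log axes. Small intestine markers are high in IR_WT 2 and 3 and in IR_Matn3_ko, Anxa4 is above sham_WT in IR_WT 1 as well, and microglia and macrophage markers are highest in IR_Matn3_ko.

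Partner genes were set against each other per length. The ratio of S100a10 to Anxa2 was 3.76, 1.76 and 2.17 in sham_WT, 1.29, 3.15 and 2.90 in IR_WT. Among the knockout libraries it was 1.88, 2.14 and 1.70. The groups overlapped, and two-sided exact permutation tests gave p = 1 for IR_WT against sham_WT and p = 0.4 for both other pairs, where the smallest possible p is 0.1. The ratio of S100a11 to Anxa2, chosen after the values were seen and so not tested, was 2.34 to 2.45 in sham_WT, 2.25 to 2.47 in IR_WT and 2.77 to 3.22 in IR_Matn3_ko. Its range was narrow across the wild-type libraries, IR_WT 1 included, where both levels were highest among the wild-type libraries. Over the 9 libraries the log2 CPM of the pair had a Pearson r of 0.988, a description of libraries that differ in group and in transcripts of other tissues.

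The tested genes outside the 10 whose log2 CPM over the 9 libraries was most like that of Anxa2 were Tnc (r = 0.975), which encodes the matrix protein tenascin-C, Tes (0.975), a focal adhesion protein, Cd44 (0.968), a hyaluronan receptor, Tgs1 (0.960) and Cdt1 (0.956), a replication licensing factor. In all, 75 genes had an r above 0.9 with Anxa2. For S100a1 they were Myl12b (0.982), Mtfp1 (0.979), Fkbp8 (0.978), Tceal5 (0.971) and Rundc3a (0.969), of 151 genes above 0.9.

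S100a11 and Anxa2 were the pair that moved together most closely, and their promoters are shown for that reason, as RefSeq gives them for GRCm38.p6, from 250 bases before to 50 after the start, on the plus strand, with the AP-1 motif TGANTCA in capitals. The S100a11 promoter lies at chr3:93520246-93520545 and the Anxa2 promoter at chr9:69453433-69453732.
S100a11: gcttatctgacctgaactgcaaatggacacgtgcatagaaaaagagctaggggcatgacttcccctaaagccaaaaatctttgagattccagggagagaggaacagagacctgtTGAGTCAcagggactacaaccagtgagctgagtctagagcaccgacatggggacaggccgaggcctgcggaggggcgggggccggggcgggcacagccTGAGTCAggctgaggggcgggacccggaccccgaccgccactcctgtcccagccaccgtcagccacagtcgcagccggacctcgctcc
Anxa2: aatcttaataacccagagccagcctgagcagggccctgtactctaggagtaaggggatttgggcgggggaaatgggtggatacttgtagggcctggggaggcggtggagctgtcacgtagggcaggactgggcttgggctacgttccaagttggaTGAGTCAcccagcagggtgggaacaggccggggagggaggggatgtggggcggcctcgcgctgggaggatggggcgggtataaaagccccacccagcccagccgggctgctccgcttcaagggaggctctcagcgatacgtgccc
The motif, which is its own reverse complement, began at -136 and -38 from the S100a11 start and at -95 from the Anxa2 start. It was found in 2 of the 9 promoters that the table gives for 8 of the genes, and in 2565 of all 32851 promoters (7.81%). The STAT motif TTCNNNGAA was in 0 of the 9 and in 2726 of all promoters (8.30%). A match describes the letters of this window and is not a site of binding. The GC content was 61.7% for S100a11 and 63.7% for Anxa2, and the median of all promoters was 52.7%. S100a10 and Anxa3 are named without a promoter.

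By position in GRCm38, all 5 S100 genes lie on chromosome 3. S100a1 (90511034 to 90514392, minus strand), S100a4 (90603771 to 90606045, plus) and S100a6 (90612882 to 90624181, plus) belong to a cluster of 11 S100 genes in 184.7 kb. S100a11 (93520488 to 93526287, plus) and S100a10 (93555080 to 93564643, plus) lie 2.82 Mb further on, 28792 bases apart. Neighbouring genes had different values: S100a4 rose in the ischemic knockout against sham while S100a6 was not called, and S100a11 was highest in IR_WT 1 among the IR_WT libraries, where S100a10 was lowest. Anxa5 (36448923 to 36475894, minus) is also on chromosome 3, Anxa1 on 19 (20373428 to 20390944, minus), Anxa2 on 9 (69453620 to 69491795, plus), Anxa3 on 5 (96793339 to 96845966, plus) and Anxa4 on 6 (86736840 to 86793584, minus). Exons overlap those of another gene over 302 bases for S100a4 (Gm42674), 98 for Anxa2 (Gm16144), 112 for Anxa3 (Gm42603) and 75 for Anxa4 (Gm44036). Gm16144, Gm42603 and Gm44036 had at most 19 counts in any library and Gm42674 is not in the table used here, and since the use of strand in counting is not given these values are uncertain to that extent. S100a11 also has a processed pseudogene, S100a11-ps, that could share its reads.

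Of the other S100 genes, 9 were in the table and 5 were tested. None was called in IR_WT against sham_WT or in IR_Matn3_ko against IR_WT, and in IR_Matn3_ko against sham_WT 1 rose and 1 fell, where 11.8% of all tested genes were called higher and 10.7% lower. S100a16 rose by 0.54 ± 0.14 on the log2 scale (edgeR adjusted p = 0.0191), from 16.7 ± 0.533 FPKM in sham_WT to 26.6 ± 3.41. S100b, the S100 protein most typical of astrocytes, fell by 0.70 ± 0.22 (adjusted p = 0.0426), from 54.9 ± 3.81 to 36.8 ± 11.1 FPKM. The summed level of 10 astrocyte markers was 4188 to 4788 CPM in sham_WT and 2325 to 3586 CPM in IR_Matn3_ko, but its members did not move alike. Slc1a2, the glutamate transporter that makes up most of the sham sum, had 2698 to 3146 CPM in sham_WT and 1154 to 1585 CPM in IR_Matn3_ko, whereas Gfap, the astrocyte intermediate filament, had 33.9 to 66.5 and 405 to 705 CPM. The mean log2 level over the 10 markers overlapped, at 7.02 to 7.24 in sham_WT and 6.61 to 7.36 in IR_Matn3_ko. The part of these markers in S100b was not tested. S100a9, a subunit of the neutrophil protein calprotectin named after its values were seen, ranged from 0.987 to 8.54 FPKM within IR_Matn3_ko and was not called, and neutrophil markers summed to at most 4.36 CPM in any library.

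Of the other annexins, 6 were in the table and 5 were tested. Anxa7, an annexin linked to membrane fusion, was the 1 called in IR_WT against sham_WT (0.53 ± 0.09; edgeR adjusted p = 0.0143), from 11.6 ± 0.581 to 17.9 ± 0.868 FPKM, in a comparison with 2.54% of all tested genes called higher. None was called between the ischemic groups. Anxa7 (0.76 ± 0.09; adjusted p = 0.000723) and Anxa9 (1.12 ± 0.29; adjusted p = 0.0235) rose in IR_Matn3_ko against sham_WT, 2 of 5 beside 11.8% of all tested genes. Anxa9 had at most 0.368 FPKM in sham_WT, below the filter's 0.5 FPKM. It entered the test only through ischemic libraries, so its call carries that selection. Anxa13, an annexin of intestinal epithelium named after its values were seen, had 25, 10 and 3 counts in sham_WT, 13, 231 and 178 in IR_WT and 79, 192 and 74 in IR_Matn3_ko. Its counts were high in the same 5 libraries as the small intestine markers, and it was not called (log2 change 3.11 ± 0.94 after ischemia in wild type, adjusted p = 0.101). Anxa13 too entered the test only through ischemic libraries, with at most 0.265 FPKM in sham_WT.

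**Figure D5:**
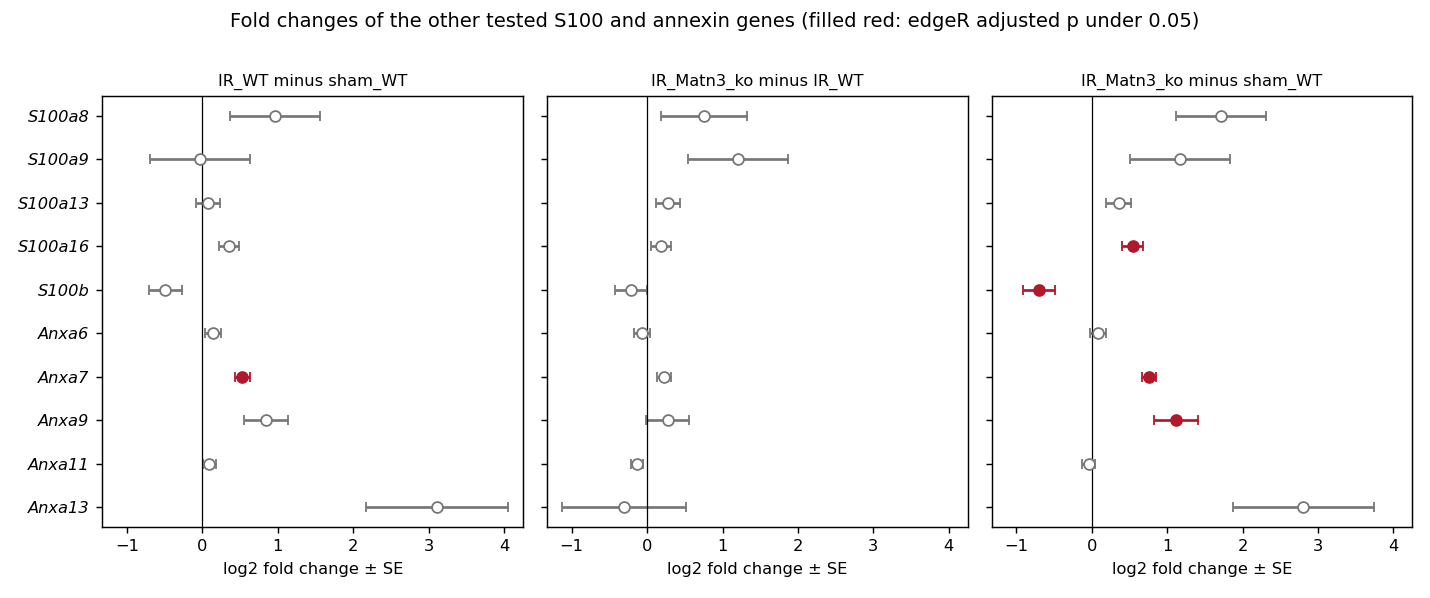
Log2 fold changes ± SE (horizontal axes) of the 10 tested S100 and annexin genes outside the main set, from the edgeR model over 9 libraries; filled red points have an adjusted p under 0.05. Anxa7 is filled in IR_WT against sham_WT, and S100a16, S100b, Anxa7 and Anxa9 in IR_Matn3_ko against sham_WT.

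Binding partners and receptors of S100 and annexin proteins formed a list of 22 genes, of which 17 were tested. In IR_WT against sham_WT 2 rose and none fell, beside 4.06% of all tested genes called: Plaur, the urokinase receptor, by 1.40 ± 0.27 (edgeR adjusted p = 0.0225) and Tlr4, the toll-like receptor that S100a8 and S100a9 engage, by 1.02 ± 0.24 (adjusted p = 0.0491) on the log2 scale. None was called between IR_Matn3_ko and IR_WT. In IR_Matn3_ko against sham_WT 6 rose and 1 fell, beside 11.8% of all tested genes called higher and 10.7% lower. Plaur went from 0.600 ± 0.0920 to 4.08 ± 0.844 FPKM (log2 change 2.63 ± 0.28; adjusted p = 0.000336), with Tlr4 at 1.81 ± 0.25 (0.00111), Fpr1, a formyl peptide receptor, at 1.60 ± 0.42 (0.024) and Cacybp at 0.81 ± 0.21 (0.0201). Tlr4 and Fpr1 had at most 0.339 and 0.316 FPKM in sham_WT, below the filter's 0.5 FPKM. They entered the test only through ischemic libraries, so their calls, and the counts of this list against sham_WT, carry that selection. The median log2 change of the list was 0.17, 0.15 and 0.25 in the 3 comparisons, against 0.0017, -0.0013 and 0.00028 over all tested genes.

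Genes of plasma membrane repair formed a list of 17, of which 16 were tested. In IR_WT against sham_WT 4 rose and none fell, beside 4.06% of all tested genes called. Trim72, a repair protein known from muscle, rose by 1.97 ± 0.40 (edgeR adjusted p = 0.0262), Ehd4, an endocytic EHD protein, by 1.13 ± 0.14 (0.00233), Dysf, the calcium-sensing dysferlin, by 0.93 ± 0.20 (0.0376) and Ehd1 by 0.44 ± 0.10 (0.048) on the log2 scale. Ehd4 went from 2.71 ± 0.316 FPKM in sham_WT to 6.34 ± 0.961 in IR_WT, whereas Trim72 stayed low, at 0.356 ± 0.0989 and 1.50 ± 0.659 FPKM. Trim72 and Dysf had at most 0.467 and 0.443 FPKM in sham_WT, below the filter's 0.5 FPKM. They entered the test only through ischemic libraries, so their calls, and the counts of this list against sham_WT, carry that selection. None was called between the ischemic groups. In IR_Matn3_ko against sham_WT 6 rose and 1 fell, against 11.8% of all tested genes higher and 10.7% lower. Among those that rose were Trim72 (2.39 ± 0.40; adjusted p = 0.00312), Dysf (1.59 ± 0.21; 0.000889), Ehd4 (1.53 ± 0.14; 0.000158) and Ehd2 (1.16 ± 0.22; 0.00563). The list medians were 0.02, 0.13 and 0.11, against the same all-gene medians, so most of its members moved less than those named.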

How the data were processed

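Poly(A)-selected RNA of 9 libraries (sham_WT, IR_WT and IR_Matn3_ko, 3 each, grouped by their titles) was sequenced, per the labels' protocols. The authors deposited raw counts per gene, whole numbers that were not normalized, and FPKM, which the deposited table gives per gene length and sequencing depth. The submitters' processing notes list the trimmer cutadapt 1.9, the aligner HISAT2 2.0.4, then StringTie 1.3.4d and UMI-tools, and also edgeR and DESeq2, without saying how each was applied. No source says whether counts are of reads or molecules, or whether strand was used. The notes name the human build GRCh38, but all 10 genes have the coordinates of the mouse annotation GENCODE M21 (GRCm38), as do 88.7% of the identifiers found in it.

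Counts were tested in R 4.3.3 with edgeR 4.0.16 (glmQLFit and glmQLFTest, TMM factors 0.948 to 1.07), with all 9 libraries, 1 mean per group, 6 residual degrees of freedom and Benjamini-Hochberg adjustment over 17247 genes at 0.05. Standard errors and 95% intervals come from that test. The series' design text gives 3 mice per group, so each library counted as a sample. Levels were given mostly in FPKM, between genes and also between groups, and no TMM factors were applied to the FPKM. Overlap of groups, where counted over all tested genes, was judged in CPM. The CPM were scaled by TMM except for markers of other cell types. The intervals cover the spread between libraries, whereas the floors (3 counts) cover counting error only.

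The genes, lists and comparisons were chosen with earlier results of these data known. Named were the 10 genes, up to 4 called genes of each list per comparison with the largest change, and the 5 genes most correlated with Anxa2 and with S100a1, without clone or predicted names. The library sets were divided at 10 CPM of small intestine markers. Alternatives were DESeq2 1.42.0, limma 3.58.1 on log2(FPKM + 1) and log2(FPKM + 0.1), other scalings and filters, a replicate block, a set term and leaving out libraries. A search for a protein motif was not run.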

Additional observations from a re-analysis of the deposited data

How the results depend on the processing

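Calls of single genes were followed across settings for the 10 genes and not for the other named genes. Among the 10, the calls of Anxa4 after ischemia in wild type, and of Anxa3 and Anxa4 in IR_Matn3_ko against sham_WT, held without any one library. With 3 libraries a group the tests detect large changes better than small ones, and S100a4, at 24 to 149 counts, is the least precise. The cause of the shifts below was not tested.

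For IR_WT against sham_WT, 701 genes were called, against 1664 by DESeq2, 418 with no filter, 407 with the library set term, 333 without the 3 libraries high in cartilage transcripts (chosen after seeing the data; the lone sham_WT library left is assumed to vary like the other groups) and 242 to 996 without 1 library. With the set term this comparison rests on IR_WT 1 as the only ischemic library set against sham_WT. Among the fits without 1 library, the lowest counts were 242 without sham_WT 1, 315 without sham_WT 2, 366 without sham_WT 3 and 398 without IR_WT 2. Of the 10 genes 2 were called, 1 to 2 without 1 library and 1 (Anxa4) without sham_WT 1, without sham_WT 3 or without the cartilage-high libraries, where Anxa3 had an edgeR adjusted p of 0.212.

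For IR_Matn3_ko against IR_WT, 0 genes were called, with 668 by DESeq2, 38 and 15 by limma on log2(FPKM + 1) and log2(FPKM + 0.1), 34 with the library set term, 6 without the cartilage-high libraries and 0 to 61 without 1 library (37 without IR_WT 1, 61 without IR_Matn3_ko 2). Of the 10 genes, DESeq2 called 2 and leaving out 1 library gave 0 throughout. For IR_Matn3_ko against sham_WT, 3887 genes were called, 1071 with the set term, 1333 without the cartilage-high libraries and 2139 to 4182 without 1 library (2139 without sham_WT 1, 2347 without sham_WT 2). Of the 10 genes 6 were called, 3 with the set term and 3 to 7 without 1 library (3 without sham_WT 1 or without sham_WT 2).

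Log2 differences that changed sign were these. With the set term Anxa1 had 0.032, 0.18 and 0.21 in IR_WT against sham_WT, IR_Matn3_ko against IR_WT and IR_Matn3_ko against sham_WT, and Anxa4 had -0.057 between the ischemic groups. Without the cartilage-high libraries, Anxa1 had 0.18 and Anxa4 -0.052 between the ischemic groups, and Anxa5 had 0.010 after ischemia in wild type, where S100a6 had 0.00029 by limma on log2(FPKM + 0.1). Without 1 library, the differences between the ischemic groups ran from -0.55 to 0.18 for Anxa1 and from -0.052 to 0.33 for Anxa4, the sign turning without IR_WT 1, from -0.24 to 0.037 for S100a1 (turning without IR_WT 3 or IR_Matn3_ko 2) and from -0.29 to 0.065 for S100a6 (without IR_Matn3_ko 2). Those after ischemia in wild type ran from -0.18 to 0.53 for S100a11 and from -0.15 to 0.49 for Anxa2, turning without IR_WT 1. The difference in the S100a10 to Anxa2 ratio after ischemia ran from -0.520 to 0.481 without 1 library. It was 0.481 without sham_WT 1 and 0.461 without IR_WT 1. The ranges for the other pairs were -1.12 to -0.189 and -1.06 to -0.0592.

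Deviations of log2 CPM from the group means were correlated between libraries of different groups. Same-numbered libraries had correlations of -0.123 to 0.0901 and differently numbered ones -0.135 to 0.163, so the numbers did not stand out as pairs. The deviations balance to 0 within each group, which limits what these correlations can show. With the replicate block 410, 0 and 3200 genes, and 2, 0 and 5 of the 10, were called in the 3 comparisons in order.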
